A study of Apis mellifera with 12 samples.

Results

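The opsins *Blop*, *Lop1* and *UVop* and the arrestin *Arr2* were followed in whole honeybee embryos. The members were taken by name, as the loci whose single gene name was *Arr2*, *Blop*, *UVop* or *Lop1*. Of the 4 names, 3 matched 1 locus each among the 17621 loci listed in every library, and *UVop* is not analysed here. A further locus carried the joined name *Blop*,LOC410563 and was kept apart. The RNA came from wild-type *Apis mellifera carnica* embryos of feral colonies, and female and male embryos were frozen at the 3 ages of 10–15 h, then 25–40 h, and 55–70 h after laying. The paper collected its diploid female embryos from naturally mated queens and its haploid male embryos from unmated queens treated with carbon dioxide. A difference between the sexes thus cannot be told apart from one of ploidy, mating or that treatment. Each of the 6 groups of sex and age had 2 libraries, 12 in all. Each pool was made from whole embryos of 3 mothers and held 100 embryos at 10–15 h, 60 at 25–40 h and 30 at 55–70 h, so the level in a pool is a mean over all cells of many animals. Fewer cells of a type and less RNA per cell cannot be told apart in such samples.

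Opsins are receptors that sit in the membrane of photoreceptor cells and carry a chromophore that changes shape on absorbing light. The activated receptor drives a G protein and phospholipase C, and in the fly *Drosophila melanogaster* this opens TRP family channels. Arrestin binds the activated receptor and ends the signal. The compound eye of the adult honeybee uses an ultraviolet, a blue and a green (long-wavelength) opsin, which are *UVop*, *Blop* and *Lop1*, and a further long-wavelength opsin, *Lop2*, is known from the ocelli.

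All values are FPKM, fragment numbers scaled by transcript length and library size, and each has a lower and an upper confidence bound that came with it. A level under 1 FPKM was called low. The files hold no fragment counts. From the width of the bounds, the libraries differed in depth by 0.886 to 1.25 times the first female 10–15 h library, so depth was similar. Differences were tested on the log2(FPKM + 1) scale with limma. The 10105 loci tested averaged 1 FPKM or more and carried a valid status in all 12 libraries. *Arr2*, *Blop* and *Lop1* were all among them. This scale understates the change of a low locus. Overlap of values or bounds between groups is given as a description. The share of all loci without such overlap was not counted. The labels name replicates but do not say whether they came from separate egg collections, so a p-value here reflects spread among libraries that may be technical. The 2 male libraries of 25–40 h lay nearer to the 10–15 h libraries over all loci (mean r of 0.730 and 0.766) than the 2 female ones did (0.642 and 0.653). For the libraries of 55–70 h the mean r with those of 25–40 h was 0.783 and 0.727 in male and 0.698 and 0.728 in female ones. The part of such differences among libraries in any sex difference below was not tested.

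**Figure D1:**
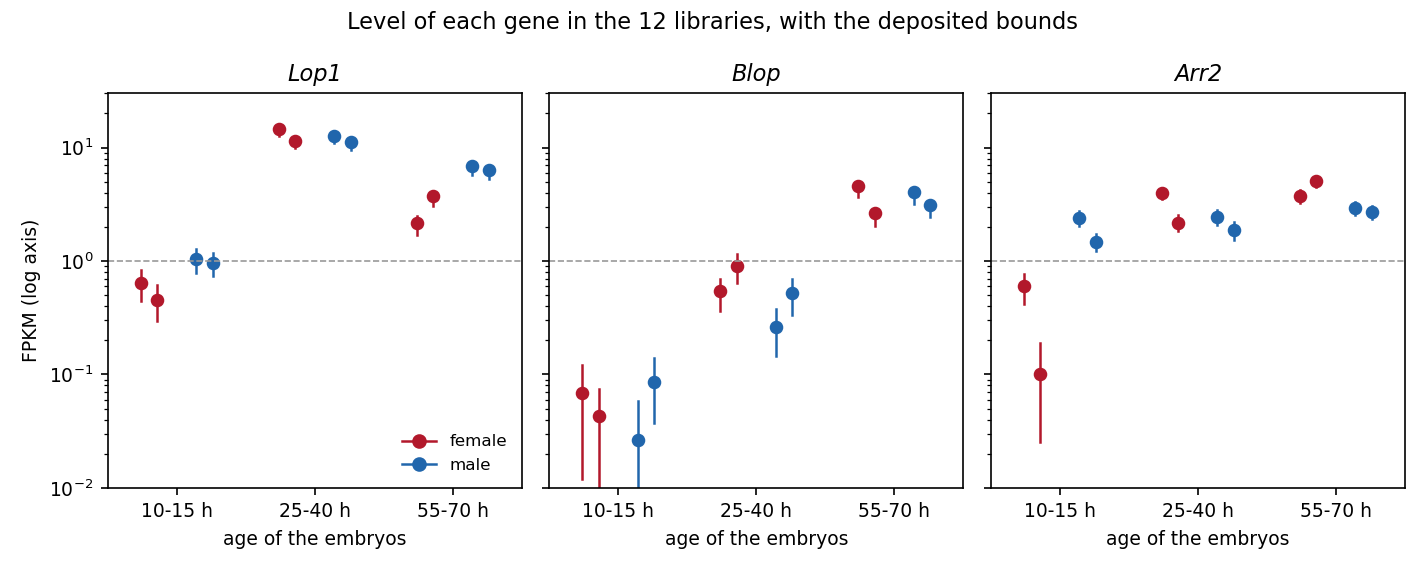
FPKM (log axis) of *Lop1*, *Blop* and *Arr2* in each of the 12 libraries by age, female left of male, with vertical lines for the deposited bounds and a dashed line at 1 FPKM. *Lop1* peaked at 25–40 h, *Blop* was highest at 55–70 h, and the lowest *Arr2* values were those of female 10–15 h embryos. The 2 lines that reach the lower edge of the *Blop* panel have a lower bound of 0.

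*Lop1*, the green opsin, had its highest level at 25–40 h in both sexes. Its level at 10–15 h was 0.642 and 0.457 FPKM in female libraries and 1.04 and 0.958 FPKM in male libraries. The level at 25–40 h was 14.7 and 11.5 FPKM in female libraries and 12.7 and 11.2 FPKM in male libraries. The embryos of 55–70 h had 2.14 and 3.73 FPKM in female libraries and 6.87 and 6.33 FPKM in male libraries. Neither the values nor the bounds of any pair of ages overlapped, a description with no share of all loci beside it. The level was low in 3 libraries, both female ones and 1 male one of 10–15 h. At 25–40 h it stood above 74.2 to 77.8% of all loci with a valid estimate, so it was far from the top even at its peak. The first female value at 25–40 h lay above its own upper bound of 14.5 FPKM, and was used as deposited.

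The mean of *Lop1* over the 4 libraries of an age was 16.2 times as high at 25–40 h as at 10–15 h, and at 55–70 h it was 0.382 times the 25–40 h mean. On the log2(FPKM + 1) scale the first step was 2.93 ± 0.18 (SE), with an adjusted p of 1.84e-07 (limma, Benjamini-Hochberg), and the second was -1.31 ± 0.18, with an adjusted p of 1.35e-04. An exact two-sided permutation test of 4 against 4 libraries gave p = 0.0286 for each step, the smallest p that its 70 arrangements allow. These steps have to be read against the movement of all loci. The median difference over all tested loci was 0.50 for the first step and 0.23 for the second, and 47.6% of tested loci were called higher and 23.6% lower at 25–40 h than at 10–15 h. For the second step 36.4% were called higher and 19.0% lower. With median-ratio scaling the share of calls that were higher was 51.3% in place of 66.9% for the first step and 49.1% in place of 65.7% for the second. The medians over all loci were then 0.09 and -0.01, and *Lop1* still gained 2.56 and lost 1.54 on the log2 scale. Both steps were called within each sex. In female libraries alone the gain was 3.18 and the loss 1.86, and in male libraries alone the gain was 2.69 and the loss 0.76 (adjusted p = 0.0328, limma).

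The largest *Lop1* difference between the sexes was at 55–70 h, when the female libraries had 2.94 ± 1.12 FPKM and the male libraries 6.60 ± 0.385 FPKM (SD, n = 2 each). Neither the values nor the bounds of the sexes overlapped at that age, a description of 2 against 2 libraries. The difference, female minus male, was -0.98 ± 0.26 and did not pass the threshold, with an adjusted p of 0.114 (limma), which ran from 0.0518 to 0.703 over 20 alternatives. At this age 0.643% of the tested loci were called between the sexes. At 10–15 h the difference was -0.37 (adjusted p = 0.43, limma), and at 25–40 h it was 0.12 (adjusted p = 0.829, limma). The averaged difference over the 3 ages was -0.41 ± 0.15, with an adjusted p of 0.0910 (limma), where 11.9% of loci were called. It passed with an adjusted p of 0.0281 (limma) when each library was rescaled to the same sum. Under that scaling the median over all tested loci was -0.25, and 365 were called higher and 2131 lower in female libraries. The exact two-sided permutation of the sexes within ages gave p = 0.0648, and 0.00926 is the lowest p its arrangements can give.

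The change of the *Lop1* sex difference between 25–40 h and 55–70 h was also tested. It was -1.09 ± 0.37 with an adjusted p of 0.0882 (limma), where 8.49% of loci were called, and without the second female 55–70 h library it was -1.39 with an adjusted p of 0.0487. Markers of neurons, the class to which photoreceptors belong, were checked at 55–70 h. The 8 loci that matched 5 of 18 neuron symbols summed to 56.7 and 71.5 FPKM in female libraries and to 82.0 and 91.9 FPKM in male libraries. *Csp*, a synaptic vesicle chaperone, made up most of that sum, with 29.0 and 40.0 FPKM in female libraries and 47.9 and 59.8 FPKM in male libraries. Without *Csp* the sums were 27.7 and 31.4 FPKM in female libraries and 32.1 and 34.1 FPKM in male libraries. Of the 8 loci 4 had a higher mean (*Nrx-1* and the loci named *Rdl*) and 4 a lower mean in female libraries. Limma called 0 of the 5 tested. Of these, *Csp* (-0.64), *Para* (-0.41) and *Syt1* (-0.42 and -0.80) were lower in female libraries, as *Lop1* was. The tested *Rdl* locus was 0.54 higher. *Csp* and the second *Syt1* locus were the 2 at an unadjusted p under 0.05 (limma). The median of the 5 was -0.42, beside -0.19 over all tested loci. All 8 loci were above 0 in the 4 libraries of 55–70 h. At 10–15 h the same 8 loci summed to 97.8 to 110 FPKM in female and 77.4 to 90.1 FPKM in male libraries. The paper places that age within cellularization and the onset of the blastoderm, so the sum cannot be read as a number of neurons. The part of these markers in the *Lop1* difference was not tested.

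*Blop*, the blue opsin, was low at both earlier ages and was above 1 FPKM only at 55–70 h. The level at 10–15 h was 0.0686 and 0.0428 FPKM in female libraries and 0.0265 and 0.0855 FPKM in male libraries. The lower bound was 0 in the second female and the first male library of that age. In the other 2 libraries of that age the bounds correspond to about 6.0 and 11.9 fragments, so a level this near 0 was poorly measured. At 25–40 h *Blop* measured 0.542 and 0.908 FPKM in female libraries and 0.262 and 0.521 FPKM in male libraries, from about 20.5 to 48.3 fragments each. In embryos of 55–70 h it was 4.59 and 2.65 FPKM in female libraries and 4.03 and 3.10 FPKM in male libraries. Neither values nor bounds overlapped between any pair of ages, again with no share of all loci beside it, and 8 of the 12 libraries were low.

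The mean of *Blop* was 10.0 times as high at 25–40 h as at 10–15 h, and 6.44 times as high at 55–70 h as at 25–40 h. On the log2(FPKM + 1) scale the later step was 1.56 ± 0.20 (adjusted p = 6.45e-05, limma), and it was called in female libraries alone (1.40) and in male libraries alone (1.71). The earlier step was 0.55 ± 0.20 (adjusted p = 0.0272, limma), close to the median of 0.50 over all loci, since the added 1 FPKM is larger than every *Blop* level at those ages. With a pseudocount of 0.1 it was 2.0 (adjusted p = 6.74e-04, limma). With a pseudocount of 5 it was 0.14 (adjusted p = 0.176, limma) and with median-ratio scaling 0.47 (adjusted p = 0.0541, limma), and neither passed. The call was also lost, with differences of 0.47 to 0.57 and adjusted p of 0.0512 to 0.0780, on leaving out any 1 of the 4 libraries of 10–15 h, the second female or the second male library of 25–40 h. The exact permutation test gave p = 0.0286 for each step, its smallest.

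No *Blop* difference between the sexes passed the test at any age. The difference, female minus male, was 0.00 ± 0.28 at 10–15 h, 0.31 ± 0.28 at 25–40 h and -0.01 ± 0.28 at 55–70 h. At 25–40 h both female values were above both male values, but their bounds overlapped, and 14.6% of all loci were called between the sexes at that age. The averaged difference was 0.10 ± 0.16 (adjusted p = 0.692, limma), and the exact permutation of the sexes within ages gave p = 0.435.

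*Arr2*, named for an arrestin that in the fly binds activated rhodopsin, was present above 1 FPKM in 10 of 12 libraries. In embryos of 10–15 h it measured 0.596 and 0.101 FPKM in female libraries and 2.40 and 1.48 FPKM in male libraries. In embryos of 25–40 h it measured 3.96 and 2.17 FPKM in female libraries and 2.45 and 1.87 FPKM in male libraries. Embryos of 55–70 h had 3.73 and 5.08 FPKM in female libraries and 2.92 and 2.68 FPKM in male libraries. The 2 low values were those of the female 10–15 h embryos, with about 46.0 and 6.8 fragments by the bounds. The male values of the 3 ages all lay within 1.48 to 2.92 FPKM.

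At 10–15 h *Arr2* averaged 0.349 ± 0.350 FPKM in female libraries and 1.94 ± 0.648 FPKM in male libraries (SD, n = 2 each), and neither values nor bounds overlapped. How many of all loci separate in this way was not counted. At this age 9.07% of tested loci were called, and 20.3% of these calls were higher in female libraries. The median difference over all tested loci was -0.11. The *Arr2* difference, female minus male, was -1.13 ± 0.31 with an adjusted p of 0.0491 (limma), just inside the threshold. It did not pass under 14 of 20 alternatives, in which its adjusted p rose to as much as 0.320. Leaving out any of the 4 libraries of that age gave differences of -1.40 to -0.86 and adjusted p of 0.0608 to 0.320. Leaving out either library of male 25–40 h, female 55–70 h or male 55–70 h left it at -1.13 with adjusted p of 0.0571 to 0.0651. With the replicate number as a block the adjusted p was 0.0506. *Arr2* did not pass between the sexes at 25–40 h (0.33 ± 0.31, adjusted p = 0.543, limma) or at 55–70 h (0.50 ± 0.31, adjusted p = 0.411, limma). The female values of 55–70 h were above the male values while the bounds overlapped. Averaged over the ages the difference was -0.10 ± 0.18, and the exact permutation gave p = 0.731. The sex difference changed by 1.46 ± 0.44 between 10–15 h and 25–40 h, with an adjusted p of 0.0708 (limma), where 7.49% of loci were called. That change passed with median-ratio scaling (1.57, adjusted p = 0.0365), with a pseudocount of 0.1 (2.85, adjusted p = 0.0456) and without the second female 25–40 h library (1.79, adjusted p = 0.0456).

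Over both sexes *Arr2* was 0.85 ± 0.22 higher at 25–40 h than at 10–15 h on the log2(FPKM + 1) scale (adjusted p = 0.00515, limma). The values of these ages overlapped, and the exact permutation of 4 against 4 libraries gave p = 0.0857. In female libraries alone the step was 1.58 (adjusted p = 0.00110, limma), and in male libraries alone it was 0.12 (adjusted p = 0.784, limma). With median-ratio scaling, where the median of all loci was 0.09, the step over both sexes was 0.54 (adjusted p = 0.0346, limma). Between 25–40 h and 55–70 h the difference was 0.35 ± 0.22 (adjusted p = 0.198, limma), near the median of 0.23 over all loci.

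**Figure D2:**
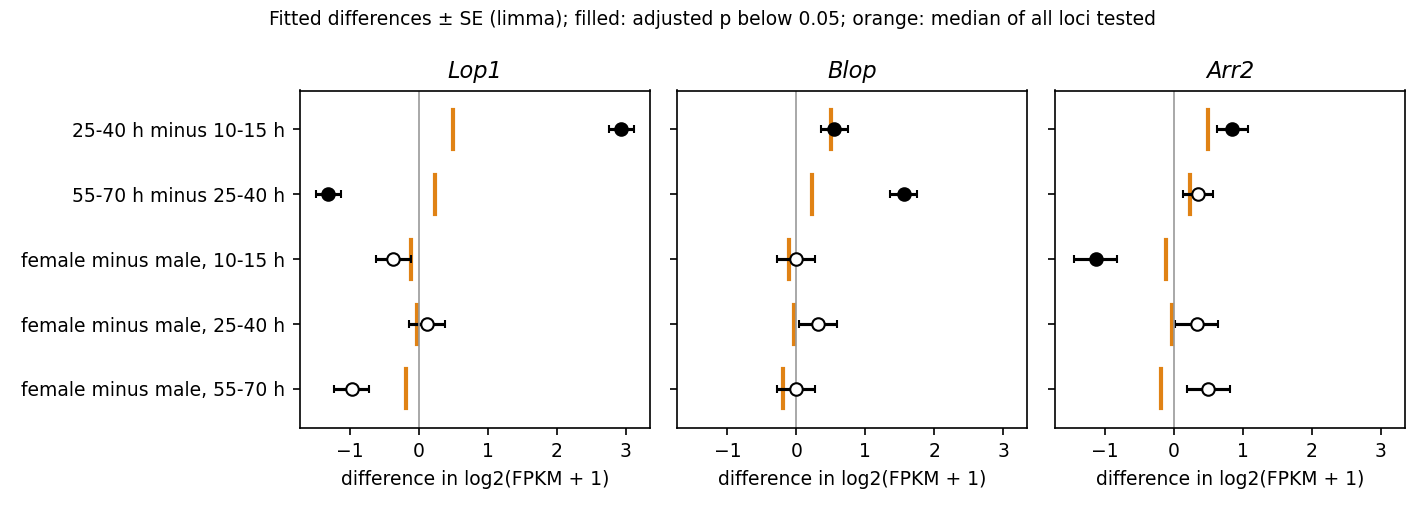
Fitted differences in log2(FPKM + 1) with their SE for *Lop1*, *Blop* and *Arr2* in the 2 age steps and in the 3 comparisons of female minus male. Filled points have an adjusted p below 0.05 (limma) and orange bars give the median over all tested loci. The steps of *Lop1* (2.93 and -1.31) and the later step of *Blop* (1.56) lie well away from the orange bars, and the earlier step of *Blop* (0.55) lies on one.

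FPKM is scaled by length, so the levels of the genes can be set side by side. At 10–15 h the order of the means over 4 libraries was *Arr2* with 1.14 ± 1.01, *Lop1* with 0.774 ± 0.272 and *Blop* with 0.0558 ± 0.0263 FPKM. *Arr2* and *Lop1* did not differ beyond their spread at that age, and *Lop1* was above *Arr2* in both female libraries and below it in both male ones. At 25–40 h the order was *Lop1* with 12.5 ± 1.58, *Arr2* with 2.61 ± 0.925 and *Blop* with 0.558 ± 0.266 FPKM, with no overlap between neighbours. At 55–70 h *Lop1* had 4.77 ± 2.22, *Arr2* 3.60 ± 1.08 and *Blop* 3.59 ± 0.878 FPKM (SD, n = 4 each), and their values overlapped. Though above 1 FPKM, *Lop1* then exceeded only 18.1 to 34.3% of the tested loci, *Arr2* 18.0 to 31.0% and *Blop* 19.3 to 31.7%. Among all loci with a valid estimate these shares were 50.0 to 61.7%, 51.5 to 59.7% and 52.4 to 59.9%. The order of the means at that age was *Arr2* (4.41), *Blop* (3.62) and *Lop1* (2.94 FPKM) in female libraries, against *Lop1* (6.60), *Blop* (3.57) and *Arr2* (2.80 FPKM) in male libraries. Over the 12 libraries, in log2(FPKM + 1), r was 0.634 between *Arr2* and *Blop*, 0.563 between *Arr2* and *Lop1* and 0.277 between *Blop* and *Lop1*. These are descriptions of 12 libraries that share 3 ages and 2 sexes.

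Both opsin loci overlap another locus, and it is not stated whether strand was used in counting. In the coordinates of the files (build not given in the sources used here) *Lop1* lies at chr15:7875242-7878287 and shares 436 bases with *Lop2* at chr15:7877852-7880031. *Blop* lies at chr14:9202753-9205344, wholly inside the joined locus at chr14:9177037-9253948. *Arr2* at chr10:10511000-10513564 overlaps no other locus. The files give no exon structure for these loci. How fragments in the shared bases were divided was not tested.

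*Lop2*, the ocellar opsin, did not have the time course of *Lop1*. *Lop2* measured 4.97 and 4.11 FPKM in female libraries and 3.78 and 3.49 FPKM in male libraries of 10–15 h. In those of 25–40 h it measured 3.30 and 2.72 FPKM in female libraries and 2.80 and 2.33 FPKM in male libraries, and at 55–70 h it was low, with 0.551 and 0.354 FPKM in female libraries and 0.516 and 0.707 FPKM in male libraries. The earlier step was -0.42 (adjusted p = 0.0374, limma) and the later step -1.30 (adjusted p = 6.29e-05, limma). The ratio of *Lop1* to *Lop2* FPKM was 0.111 to 0.275 at 10–15 h, 4.22 to 4.80 at 25–40 h and 3.90 to 13.3 at 55–70 h. *Lop2* was thus the higher of the pair in the 4 youngest libraries and *Lop1* in the 8 others.

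The joined locus that contains *Blop* had a course of its own. Its means were 1.75 ± 0.481 FPKM at 10–15 h, 6.55 ± 2.15 FPKM at 25–40 h and 6.12 ± 0.603 FPKM at 55–70 h (SD, n = 4 each). It was higher at 25–40 h than at 10–15 h by 1.42 (adjusted p = 1.73e-04, limma), and the later step, at which *Blop* rose, was -0.04 (adjusted p = 0.903, limma). The joined locus was 25.3 to 41.6 times as high as *Blop* at 10–15 h, 6.67 to 27.2 times at 25–40 h and 1.35 to 2.61 times at 55–70 h. How far its estimate holds fragments of *Blop* was not tested.

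**Figure D3:**
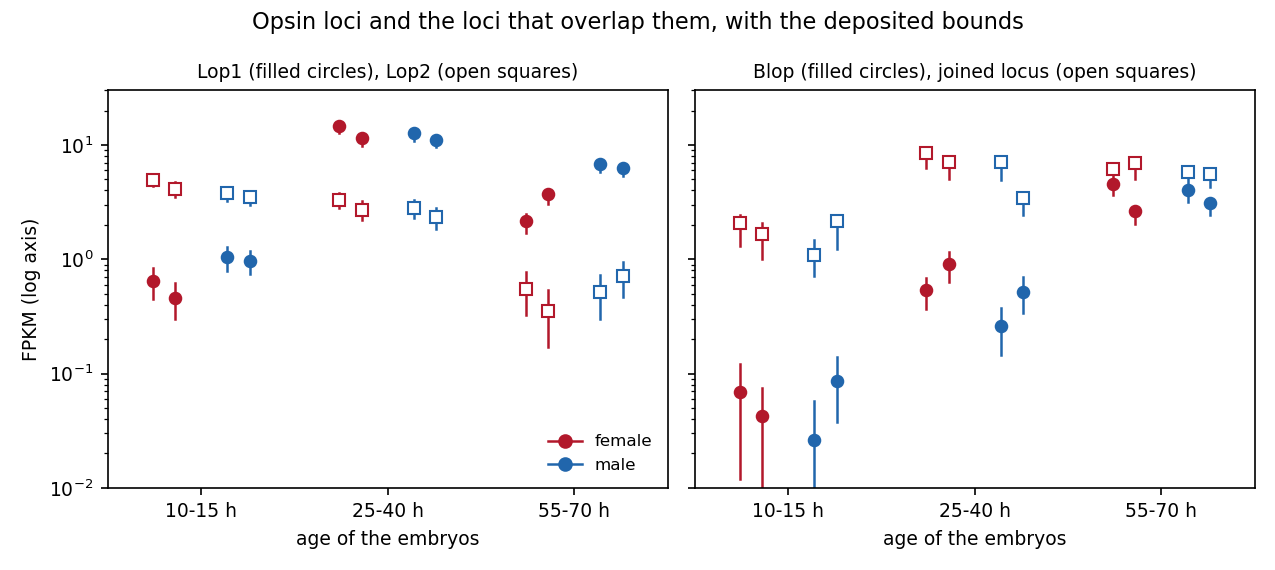
FPKM (log axis) with the deposited bounds of *Lop1* and *Lop2* on the left and of *Blop* and the joined locus on the right, by age, with female libraries left of male ones. Filled circles are the members and open squares the loci that overlap them. *Lop2* lies above *Lop1* in the 4 libraries of 10–15 h and below it in the 8 later ones, and the joined locus lies above *Blop* in all 12 libraries.

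*Arr1*, a second arrestin, had a mean of 0.889 FPKM, was below the filter and was not tested. In embryos of 10–15 h it measured 2.80 and 1.43 FPKM in female libraries and 0.558 and 1.03 FPKM in male libraries. From 25–40 h on it was low in all 8 libraries, with 0.455 to 0.785 FPKM.

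The genes of the light response were counted as a list that held the members. A list of 51 symbols of the insect phototransduction cascade matched 17 loci by name, of which 16 were tested, *Arr2*, *Blop*, *Lop1* and *Lop2* included. The counts and medians also hold *hdc*, a match by name to a gene outside the cascade, and *TRP*, whose identity is not settled. Between 10–15 h and 25–40 h, 7 were higher, 8 lower and 1 did not pass, where 47.6% of all tested loci were higher and 23.6% lower. The 7 were *Arr2*, *Blop*, *Lop1*, *hdc*, *trpgamma*, *chp* and *Gprk1*, and the 8 included *TRP* and *Lop2* but no member. The members were chosen by name beforehand, so these counts and medians do not describe the rest of the cascade apart from them. The median was -0.16, beside 0.50 over all tested loci. Between 25–40 h and 55–70 h, 5 were higher, 5 lower and 6 did not pass, where 36.4% of all tested loci were higher and 19.0% lower, with a median of -0.13 beside 0.23 over all tested loci.

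At the later step the loci that rose included 4 beside *Blop*. *trpgamma*, a channel of the TRP family, had 8.72 and 7.93 FPKM in female and 8.57 and 8.79 FPKM in male libraries of 55–70 h, and was 2.83 higher than at 25–40 h (adjusted p = 1.56e-07, limma). *Gprk1*, a kinase of G protein-coupled receptors, rose by 1.95 (adjusted p = 4.39e-06, limma). *Hdc*, histidine decarboxylase, makes histamine, the transmitter of insect photoreceptors, and was 1.82 higher (adjusted p = 3.81e-06, limma), with 3.61 and 3.66 FPKM in female and 2.55 and 2.46 FPKM in male libraries of 55–70 h. It had at most 0.264 FPKM in the 8 earlier libraries. *inaD*, the scaffold of the cascade in the fly, was 1.56 higher (adjusted p = 1.48e-05, limma). The *inaD* level was lower at 25–40 h than at either other age.

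The loci that fell at the later step were *Lop1*, *Lop2*, *Calx*, *TRP* and *hdc*. *hdc* matched by its letters alone and is in the fly the name of another gene, *headcase*, which is not part of the cascade. It fell by 3.38 (adjusted p = 2.14e-06, limma). *TRP* lost 1.29, and whether this name stands for the channel could not be settled. Between the sexes at 25–40 h, *Gprk1* was the 1 listed locus higher in female libraries and 6 were lower (*Calx*, *TRP*, *rdgA*, *inaE*, *Gprk2* and *hdc*), none of them an opsin or arrestin, where 14.6% of all tested loci were called. At 10–15 h 1 was higher (*Calx*) and 1 lower (*Arr2*), where 9.07% of all were called, and at 55–70 h 0 of 16 were called by limma, with *Lop1* the 1 locus at an unadjusted p under 0.05. *Calx*, *TRP*, *rdgA*, *inaE*, *Gprk2*, *st*, *g*, *Csp*, *Para*, *Syt1*, *Rdl*, *Nrx-1*, *chp* and *Arr1* fall outside the rule for named genes and were chosen after their values were seen.

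**Figure D4:**
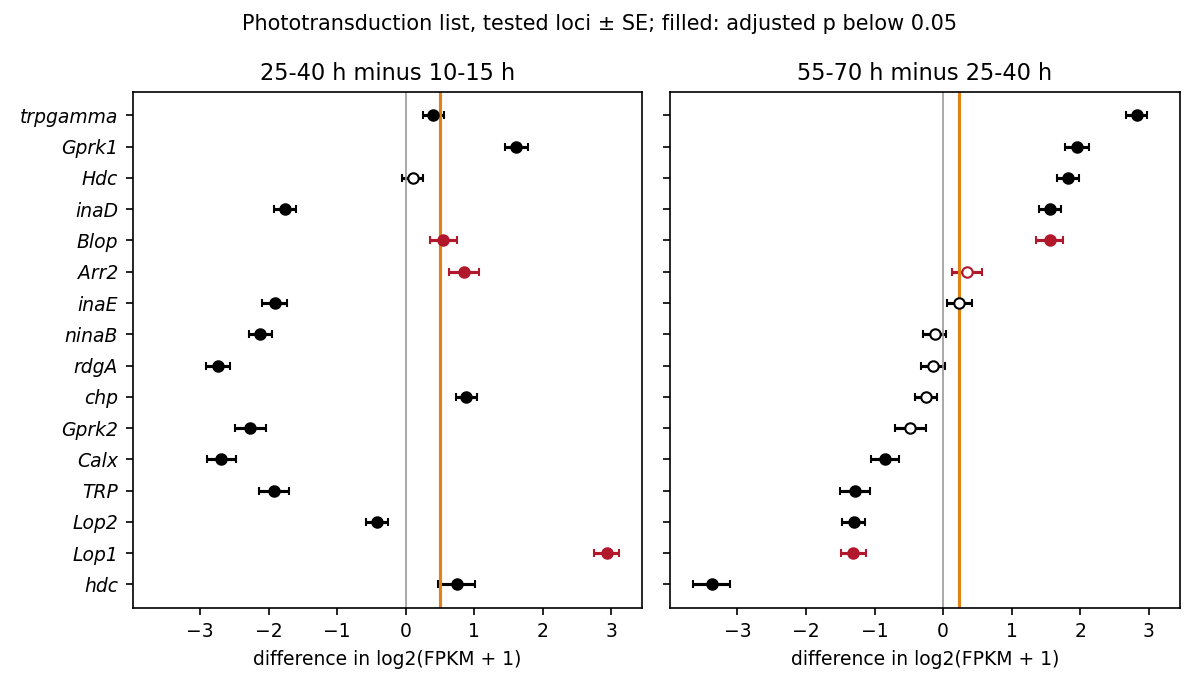
Differences in log2(FPKM + 1) with their SE for the 16 tested loci of the phototransduction list, 25–40 h minus 10–15 h on the left and 55–70 h minus 25–40 h on the right. Filled points have an adjusted p below 0.05 (limma), red points are *Lop1*, *Blop* and *Arr2*, and orange lines give the median over all tested loci. *Lop1* has the highest value on the left (2.93), and *trpgamma* on the right (2.83). The loci shown include *hdc*, a gene outside the cascade, and *TRP*, whose identity is not settled.

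Markers of photoreceptors were summed as a set, since the embryos were whole. Of 17 symbols 6 matched a locus (*Lop1*, *Lop2*, *Blop*, *Arr1*, *chp* and *TRP*), and the others are not analysed here. *chp*, chaoptin, a surface protein of fly photoreceptors, had 0.432 to 2.18 FPKM over the 12 libraries and was at 0 in none. The sum of the 6 loci was 22.3 to 26.4 FPKM in female and 28.4 to 31.7 FPKM in male libraries of 10–15 h, and *TRP* alone made up 15.5 to 25.8 FPKM of it. By 25–40 h the sum was 18.9 to 24.0 FPKM in female and 25.5 to 26.7 FPKM in male libraries. At 55–70 h it was 9.24 to 9.69 FPKM in female and 13.6 to 16.5 FPKM in male libraries. The course of the sum turned on *TRP*. Without it the other 5 loci summed to 6.75 to 9.03 FPKM in female and 5.85 to 5.99 FPKM in male libraries of 10–15 h, to 17.5 to 21.0 FPKM in female and 16.7 to 18.1 FPKM in male libraries of 25–40 h, and to 8.48 to 8.80 FPKM in female and 12.4 to 13.8 FPKM in male libraries of 55–70 h. They were thus highest at 25–40 h, when *Lop1* made up most of the sum. Since *Lop1* and *Blop* are in the set, the sum repeats their own levels. It cannot be read as a separate measure of photoreceptors.

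Genes of eye specification and eye pigment were counted in the same way. Of 43 symbols of eye specification 10 matched, 10 loci were tested, and at 25–40 h 3 were higher and 5 lower than at 10–15 h (all tested loci: 47.6% and 23.6%). At 55–70 h 5 were higher and 3 lower than at 25–40 h (all tested loci: 36.4% and 19.0%), with a median of 0.88 beside 0.23 over all loci. Of 16 eye pigment symbols 4 matched and 2 loci were tested. *st*, a transporter of pigment precursors in the fly, was higher at each step, by 1.35 (adjusted p = 3.68e-05, limma) and 0.78 (adjusted p = 0.00299, limma). *g*, a subunit of a trafficking adaptor in the fly, was 1.05 lower at the first step (adjusted p = 0.00141, limma) and did not pass at the second.

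The genes whose levels ran most alike with each member over the 12 libraries were taken from 1888 loci with a single gene symbol, as the 3 with the highest Pearson r in log2(FPKM + 1). For *Lop1* these were *dbo* (r = 0.986), *NC2beta* (r = 0.984) and *Hex110* (r = 0.983), and *Hex110*, a hexamerin storage protein, had mean levels of 1.07, 20.4 and 7.93 FPKM at the 3 ages. For *Blop* they were *Pdp1* (r = 0.987), *verm* (r = 0.983) and *PH4alphaEFB* (r = 0.983). *verm*, a chitin deacetylase in the fly, had mean levels of 0.739, 7.97 and 403 FPKM. For *Arr2* the highest were *fu* (r = 0.910), *RpI135* (r = 0.908) and *BTBD9* (r = 0.907). All r are descriptions over libraries that share ages and sexes.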

How the data were processed

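Poly(A) RNA of 12 pools of whole embryos was sequenced, and per the labels' processing notes the tools were TopHat2, Bowtie2 (version 2.2.6) and Cufflinks (version 2.2.1). Genome build: not given in the sources used here. The authors deposited 1 table per library, with FPKM, its bounds and a status for each locus. Loci were matched by gene name without regard to case, and chromosomes were assigned through symbols shared with the RefSeq gene table. Library sizes were not rescaled. log2(FPKM + 1) was fitted with limma 3.58.1 (R 4.3.3), with 6 group means, no block and a variance trend, with Benjamini-Hochberg adjustment across 10105 loci and a threshold of 0.05. Fragments per library were read from the bounds, taken as 2 SD to each side of their midpoint. Exact permutation tests were added for single members. The members and lists were chosen with earlier results of these data known. The genes named were the members, the loci that carry their names, the 3 most correlated single symbols for each, and up to 6 listed phototransduction loci called at the later age step, by smallest adjusted p. A few further genes, identified in the text, were picked with their values in view. The alternatives were other pseudocounts, no filter, median-ratio and equal-sum (TPM) scaling, the midpoint of the bounds, the compared libraries alone, a replicate block, and each library left out. The age steps within 1 sex were added after the data were seen. The procedure was tested on simulated data.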

Additional observations from a re-analysis of the deposited data

How the results depend on the processing

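The steps of *Lop1*, the later step of *Blop* and the step of *Arr2* at 25–40 h passed the test under all 20 alternatives run on both sexes, but the *Arr2* step was not called in male libraries alone (0.12). The cause of the changes below was not tested. The *Arr2* sex difference at 10–15 h no longer passed with a pseudocount of 5 (-0.37), or at -1.13 with no filter, with the compared libraries alone or with the replicate block, and was -1.40 to -0.86 with 1 library left out. The earlier *Blop* step no longer passed with a pseudocount of 5 (0.14), with median-ratio scaling (0.47) or in male libraries alone (0.39), and was 0.47 to 0.62 with 1 library left out.

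Sex differences near 0 changed sign. For *Blop* at 10–15 h the values were -6.85e-05 with a pseudocount of 5, -0.0046 with equal sums, -0.0094 with the midpoint of the bounds and -0.040 to 0.040 with 1 library left out. For *Blop* at 55–70 h they were 0.0024 with a pseudocount of 5, 0.22 with median-ratio scaling and -0.31 to 0.30 with 1 library left out. *Lop1* at 25–40 h was -0.082 with equal sums and -0.045 to 0.28 with 1 library left out. Averaged over the ages, *Arr2* was 0.02 with a pseudocount of 5, as in the permutation test, and -0.21 to 0.0067 with 1 library left out, and *Blop* was -0.0019 to 0.20. The change of the *Arr2* sex difference to 55–70 h was -0.16 to 0.49 with 1 library left out.

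Others newly passed. The change of the *Arr2* sex difference to 25–40 h was 2.85 with a pseudocount of 0.1, 1.57 with median-ratio scaling and 1.14 to 1.79 with 1 library left out, the last of them without the second female 25–40 h library (adjusted p = 0.0456, limma). That of *Lop1* to 55–70 h was -1.39 to -0.80. The averaged *Lop1* sex difference was -0.58 with equal sums (exact permutation p = 0.0185), and the permutation test passed at -0.61 with a pseudocount of 0.1 (exact p = 0.0463). With equal sums the median of that difference over all tested loci was -0.25.

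Counts of all loci called between the sexes depended on the settings. At 10–15 h 917 were called, against 290 with no filter, 1824 with median-ratio scaling, 1640 with equal sums and 1 to 1442 with 1 library left out. At 25–40 h 1479 were called, and 521 to 2010 with 1 library left out. At 55–70 h 65 were called, against 25 and 152 with pseudocounts of 0.1 and 5, 353 with no filter, 33 with equal sums, 117 with the midpoint, 39 with the replicate block and 11 to 392 with 1 library left out. Averaged over the ages 1206 were called, against 680 with no filter, 2496 with equal sums and 123 to 2669 with 1 library left out. With the compared libraries alone limma called 0 at each age, and 3410, 2235 and 935 had an unadjusted p under 0.05 at the 3 ages. With no filter 8477 loci were called at 55–70 h against 25–40 h, in place of 5594.

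Deviations of libraries with the same replicate number correlated by -0.0563, -0.0403 and 0.112 at the 3 ages. These values show little shared deviation, but cannot show whether the libraries were collected or processed together. The block changed no other call of *Arr2*, *Blop* or *Lop1*. Over all loci the fit with the block called 676 in place of 917 at 10–15 h and 1335 in place of 1479 at 25–40 h between the sexes. Levels of *Blop* at 10–15 h rest on few fragments and are the least certain.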
